A study of Mus musculus with 8 samples.

Results

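The collagen chains measured in the mouse left ventricle were followed on 8 expression arrays. Their rows were taken by name: every row of the value table whose gene symbol is Col, digits, the letter a and digits. The family itself was chosen with earlier results of these data known. The rule found 42 rows of 22206, and each of the 42 symbols stood on 1 row. Both groups were untreated male mice of strain C57/BL6J aged 8 weeks. The first group was 4 samples of mice with cardiac-specific microRNA-100 overexpression, called miR-100 hearts here, and the second was 4 samples of wildtype mice. Neither the promoter that drives the microRNA nor the founder line is given in the sources used here. Where samples are not from separate mice, the spread that the p-values measure may be technical. The question the comparison addresses is whether the RNA of any collagen class differs in the resting ventricle when this microRNA is raised in the heart.

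Collagens are proteins in which 3 chains wind around each other into a triple helix, and each chain is encoded by a Col gene of its own. Fibrillar collagens assemble into the rope-like fibres that give the heart wall its tensile strength, and network collagens form the sheets of basement membranes around muscle cells and capillaries. Other classes sit on fibril surfaces, link fibres to cells or span the cell membrane. In the heart, fibroblasts make most of the fibrillar collagen, while endothelial and mural cells contribute much of the basement membrane. Fibrosis is the excess of this matrix, so fibrillar chains are commonly read as its RNA markers.

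The sequences of the overexpressed microRNA and of promoters of 4 main chains place these genes in the genome. Both mature arms of mouse miR-100 are shown because the labels do not name an arm, with the seed, bases 2 to 8, in capitals. The hairpin lies on the plus strand of chromosome 9 in GRCm38.p6, with the 5p arm at chr9:41531437-41531458 and the 3p arm at chr9:41531471-41531492. Sequences are from RefSeq.
mmu-miR-100-5p: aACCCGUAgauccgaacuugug
mmu-miR-100-3p: aCAAGCUUgugucuauagguau

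Promoter windows span 250 bases before to 50 bases after the annotated start in GRCm38.p6. Of the 42 genes, 34 had such a window in RefSeq's tables, with 37 windows in all. Col1a2 (plus strand, chr6:4505368-4505667) and Col3a1 (plus strand, chr1:45311288-45311587) are shown as fibrillar chains of the heart wall. Col4a1 (minus strand, chr8:11312777-11313076) and Col4a2 (plus strand, chr8:11312555-11312854) are shown because their windows overlap. The windows share 78 bases at their downstream ends, and both starts lie there, 21 bases apart on opposite strands. Each gene is transcribed through the annotated start of the other. Capitals mark CCAAT or its reverse complement ATTGG.
Col1a2: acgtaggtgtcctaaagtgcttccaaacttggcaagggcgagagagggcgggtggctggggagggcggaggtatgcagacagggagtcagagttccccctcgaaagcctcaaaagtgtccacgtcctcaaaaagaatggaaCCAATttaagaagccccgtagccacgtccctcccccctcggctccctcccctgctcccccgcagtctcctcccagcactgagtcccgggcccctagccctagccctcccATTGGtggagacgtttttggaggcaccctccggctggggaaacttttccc
Col3a1: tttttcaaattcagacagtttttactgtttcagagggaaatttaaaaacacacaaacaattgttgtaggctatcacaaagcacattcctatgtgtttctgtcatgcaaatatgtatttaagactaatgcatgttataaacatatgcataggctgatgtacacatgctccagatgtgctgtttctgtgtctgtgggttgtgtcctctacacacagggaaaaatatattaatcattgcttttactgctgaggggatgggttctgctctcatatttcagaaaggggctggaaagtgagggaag
Col4a1: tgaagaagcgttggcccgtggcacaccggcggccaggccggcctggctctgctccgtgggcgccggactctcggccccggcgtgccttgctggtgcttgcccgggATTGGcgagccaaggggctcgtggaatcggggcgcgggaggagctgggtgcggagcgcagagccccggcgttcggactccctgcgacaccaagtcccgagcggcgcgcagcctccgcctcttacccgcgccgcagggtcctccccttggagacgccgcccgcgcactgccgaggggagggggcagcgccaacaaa
Col4a2: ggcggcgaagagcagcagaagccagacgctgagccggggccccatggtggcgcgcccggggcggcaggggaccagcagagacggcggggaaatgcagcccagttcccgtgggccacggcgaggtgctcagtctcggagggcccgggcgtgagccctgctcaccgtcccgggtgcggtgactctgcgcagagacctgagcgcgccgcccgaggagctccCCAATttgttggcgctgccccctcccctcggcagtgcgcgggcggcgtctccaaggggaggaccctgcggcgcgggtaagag

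The 4 windows differed in base composition. GC content was 61.0% for Col1a2, 37.7% for Col3a1, 74.0% for Col4a1 and 73.7% for Col4a2, beside a median of 52.7% over all 32851 windows in the table. Col1a2 held 2 copies of CCAAT counted on both strands, Col4a1 and Col4a2 1 each and Col3a1 0. Among the collagen windows 12 of 37, or 32.4%, held CCAAT, beside 37.4% of all windows. The letters GGGCGG, read on both strands, stood in 22 of the 37, or 59.5%, beside 35.7% of all windows, and TATAAA in 13.5% beside 13.6%. These matches are letters in a window and not measured binding sites. GGGCGG holds only G and C, and the part of GC content in its count was not tested.

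Each row of the arrays is the log2 signal of 1 transcribed region. Array medians lay between 5.70 and 5.74, and pairs of arrays correlated between 0.988 and 0.993 over all rows. Replicate 2 of each group stood apart on the first principal component (21.7% of the variance), at 38.2 for wild type and -30.8 for miR-100. The other miR-100 arrays lay between -13.5 and -8.96 and the other wild type arrays between 3.49 and 13. All 6 cardiomyocyte markers were among the brightest rows, the lowest at percentile 98.5 of row means. No row carries the symbol of miR-100, so its overexpression was not checked here. Signal over background and the number of arrays limit the precision: 8 of the 42 collagen rows lay below percentile 25 of row means and 24 below percentile 50.

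No collagen chain passed the test between miR-100 and wild type hearts. In limma, with Benjamini-Hochberg adjustment over all 22206 rows, 0 of the 42 chains had an adjusted p under 0.05, beside 31 rows or 0.14% of the whole table (0.0946% higher and 0.045% lower). At an unadjusted p under 0.05 there was 1 collagen row, Col4a6 (2.38% of the 42), which was lower, beside 7.73% of all rows (3.55% higher and 4.17% lower). The groups did not overlap in 1 collagen row, Col18a1, beside 4.54% of all rows. Differences, given throughout as miR-100 minus wild type in log2 signal, ran from -0.38 for Col4a6 to 0.27 for Col4a3.

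More chains lay slightly below 0 than above it. The difference was below 0 in 32 chains and above 0 in 10, with a median of -0.10, whereas 53% of all rows lay below 0 with a median of -0.015. The chains share the arrays and the cells they come from, so this count describes the list and has no test. It was between 29 and 33 in the 8 fits that left out an array.

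The intervals bound the difference in signal, not in RNA, that these arrays could have missed. Each of the 42 chains had a 95% confidence interval within -1 to 1, that is, within a factor of 2 in signal either way. The median half-width was 0.36. How closely signal follows RNA was not tested, and 8 of the chains lay below percentile 25 of row means. The lowest bound was -0.75 for Col1a2, or 59.3% of the wild type signal, and the highest was 0.77 for Col4a3, or 171%. These intervals are per row and are not adjusted for the number of rows. In 10 simulations of this comparison over 22206 rows, limma recovered 0% of the rows given a change of 0.25. Recovery was 5.4% at a change of 0.5, 54.8% at 1 and 97.2% at 2. At an unadjusted p under 0.05, 31.4% of the rows changed by 0.25 and 75.6% of those changed by 0.5 were found. A change of 0.5 or less was therefore mostly not detectable at the adjusted threshold, and the intervals of 17 of the 42 chains reached below -0.5. In bulk tissue, fewer matrix-producing cells and less collagen RNA per cell cannot be told apart.

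**Figure D1:**
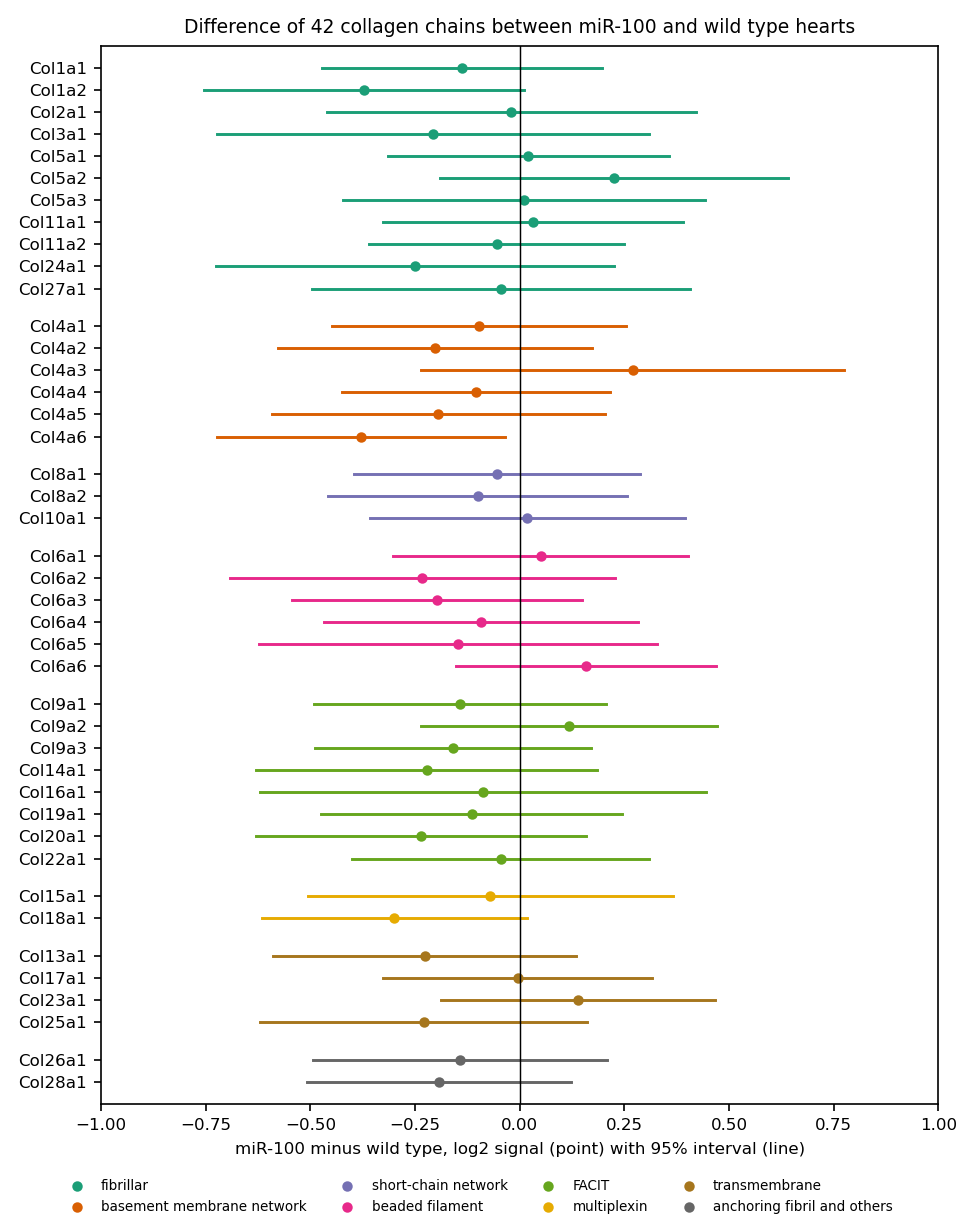
Difference of each of the 42 collagen chains (miR-100 minus wild type, log2 signal, n = 4 each) as a point with its 95% confidence interval from limma as a line, coloured by class. The intervals of 41 chains cross 0, that of Col4a6 runs from -0.72 to -0.04 before adjustment, and none reaches -1 or 1.

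Among the 11 fibrillar chains, the median difference was -0.05, with 7 below 0 and 4 above. The 2 chains of type I collagen, the main fibre of the heart wall, both had lower means in the miR-100 hearts. Col1a2 read 7.96, 7.96, 7.79 and 7.46 in miR-100 replicates 1 to 4, against 8.10, 8.40, 8.36 and 7.80 in wild type replicates 1 to 4 (log2 signal). The groups overlapped only through wild type replicate 4, which lay below 2 of the miR-100 values. Its difference of -0.37 (SE 0.18, 95% confidence interval -0.75 to 0.01), or 77.2% of the wild type signal, had an unadjusted p of 0.0550 and an adjusted p of 0.667 in limma. Without wild type replicate 4 it was -0.49 with a limma adjusted p of 0.470, and without miR-100 replicate 4 it was -0.26 with a limma adjusted p of 0.839.

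Col1a1, the chain present as a pair in each type I molecule, had a narrow range in the miR-100 hearts. Its values were 6.89, 6.71, 6.91 and 6.88 in miR-100 hearts, against 7.06, 6.82, 7.30 and 6.76 in wild type hearts. The groups overlapped, and the difference was -0.14 (SE 0.16, limma adjusted p = 0.903). The 2 partner chains thus had differences of the same sign that did not pass the test.

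Col3a1 encodes type III collagen, a thinner and more pliable fibre that forms from a single kind of chain. It read 10.16, 10.15, 10.13 and 9.13 in miR-100 hearts, against 10.14, 10.03, 10.50 and 9.73 in wild type hearts. Replicate 4 was the lowest array in both groups, and in the miR-100 group it lay 1 log2 unit below the other values, which were close together. The difference of -0.21 (SE 0.24, limma adjusted p = 0.904) became 0.05 without miR-100 replicate 4, so its sign rests on that array.

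Type V collagen starts fibril assembly and sets fibril width. Col5a2 read 5.47, 5.44, 5.88 and 5.15 in miR-100 hearts, against 5.70, 5.20, 5.15 and 4.99 in wild type hearts, a difference of 0.23 (SE 0.19, limma adjusted p = 0.864). Col5a1 read 3.90, 4.25, 4.03 and 3.98 in miR-100 hearts, against 4.09, 3.76, 4.28 and 3.95 in wild type hearts, a difference of 0.02, which was -0.05 without miR-100 replicate 2 and -0.067 without wild type replicate 2. Col5a3 differed by 0.01. Groups overlapped in all 3, and the mean of Col5a1 stood at percentile 22.0 of row means and that of Col5a3 at 20.7, where signals are dim.

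The 5 other fibrillar chains are known mainly from cartilage or as minor partners of larger fibres. Col2a1, the chain of cartilage fibrils, differed by -0.02, and its cartilage partners Col11a1 and Col11a2 by 0.03 and -0.06. Col24a1 and Col27a1, at percentiles 12.9 and 13.1 of row means, differed by -0.25 and -0.05. Col24a1 read 3.29 to 3.73 in the miR-100 arrays, against 4.54 in wild type replicate 1 and 3.48 to 3.72 in the other wild type arrays.

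**Figure D2:**
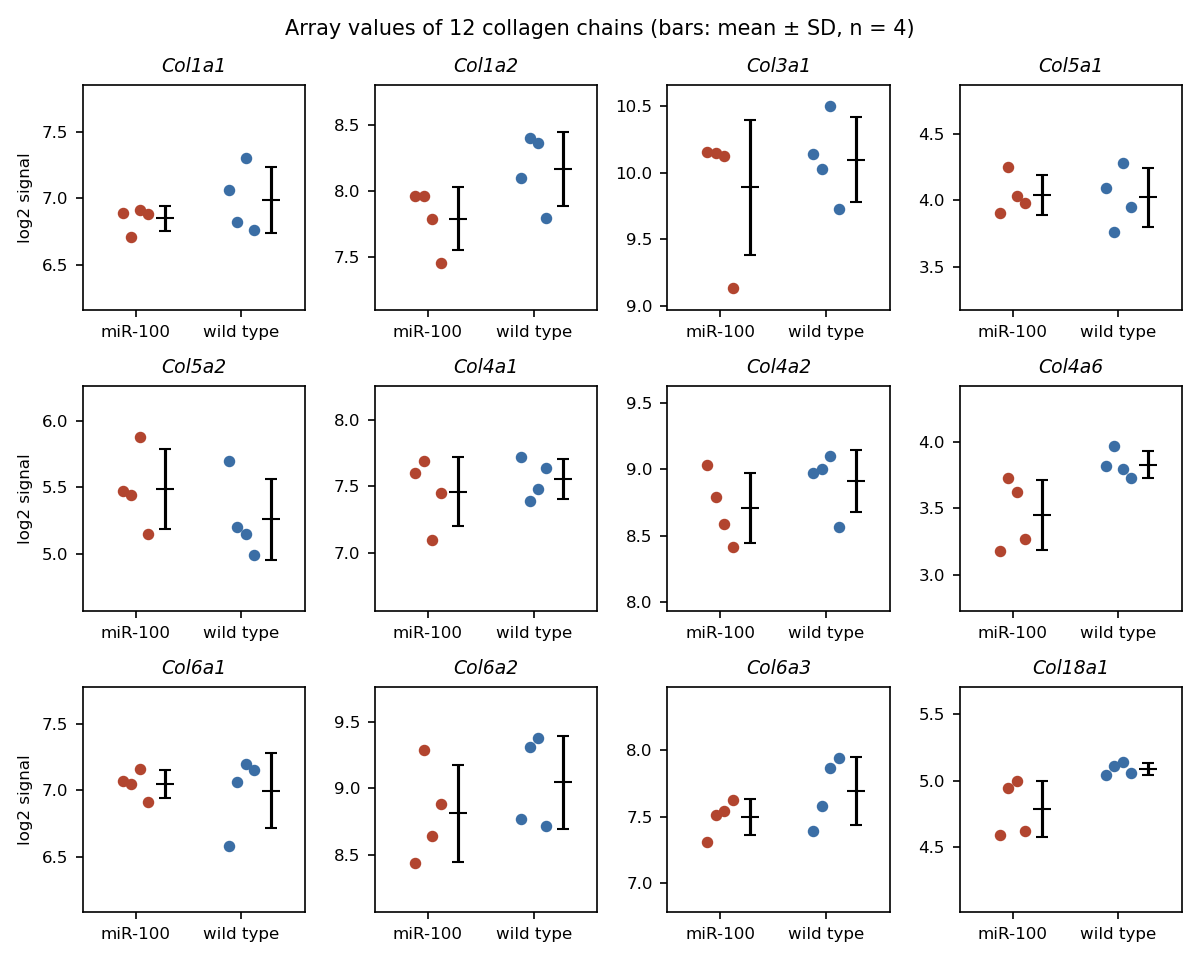
Log2 signal of 12 collagen chains on each array, with miR-100 hearts left of wild type hearts, points for the arrays in replicate order and bars for the mean ± SD (n = 4 each). Each panel spans the same height, and the groups overlap in every panel except that of Col18a1, while those of Col4a6 meet at 3.73.

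The basement membrane network of type IV collagen held the row with the lowest unadjusted p of all collagens. Of its 6 chains 5 lay below 0, and the median difference was -0.15. Col4a6, a chain that pairs with Col4a5 in the basement membranes of smooth muscle, read 3.18, 3.73, 3.62 and 3.27 in miR-100 hearts, against 3.82, 3.97, 3.80 and 3.73 in wild type hearts. The highest miR-100 value equalled the lowest wild type value. The difference was -0.38 (SE 0.16, 95% confidence interval -0.72 to -0.04), or 76.8% of the wild type signal, with an unadjusted p of 0.0329 and an adjusted p of 0.590 in limma. Its mean stood at percentile 11.5 of row means, so this chain was measured close to the dim end of the array.

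Col4a1 and Col4a2, which form the common type IV trimer of heart muscle and capillaries and whose windows printed above overlap, had overlapping groups. Col4a2 read 9.03, 8.79, 8.59 and 8.42 in miR-100 hearts, against 8.97, 9.0, 9.10 and 8.57 in wild type hearts, a difference of -0.20 (SE 0.17, limma adjusted p = 0.864). Col4a1 read 7.60, 7.69, 7.10 and 7.45 in miR-100 hearts, against 7.72, 7.39, 7.48 and 7.64 in wild type hearts, a difference of -0.10 (SE 0.16, limma adjusted p = 0.939). The sign of Col4a1 turned without miR-100 replicate 3, where the difference was 0.02.

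The other type IV chains are best known from the glomerular filter of the kidney. Col4a3 differed by 0.27 (SE 0.23, limma adjusted p = 0.865), with 6.80 in miR-100 replicate 2 and 6.02 to 6.08 in the other miR-100 arrays, against 5.47 to 6.42 in wild type arrays. Col4a4 differed by -0.11 and Col4a5 by -0.20. These did not pass the test, and the groups overlapped in each.

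Type VI collagen forms beaded filaments that connect basement membranes with the surrounding fibres. Of its 6 chains 4 lay below 0, with a median of -0.12 that was 0.018 without miR-100 replicate 2. Leaving out wild type replicate 2 gave -0.028, and leaving out replicate 1 of that group gave -0.24. Col6a3, the largest chain of the classical trimer, had the lowest unadjusted p among them. It read 7.31, 7.51, 7.54 and 7.63 in miR-100 hearts, against 7.39, 7.58, 7.87 and 7.94 in wild type hearts, a difference of -0.20 (SE 0.16, limma adjusted p = 0.856). Wild type replicates 3 and 4 lay above every miR-100 array, and the other wild type arrays lay among them.

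Its partners differed in sign from each other. Col6a2 read 8.44, 9.29, 8.64 and 8.88 in miR-100 hearts, against 8.77, 9.31, 9.38 and 8.72 in wild type hearts, a difference of -0.23 (SE 0.21, limma adjusted p = 0.873). Col6a1 read 7.07, 7.05, 7.16 and 6.91 in miR-100 hearts, against 6.58, 7.06, 7.20 and 7.15 in wild type hearts, a difference of 0.05 (SE 0.16), which was -0.09 without wild type replicate 1. Col6a4, Col6a5 and Col6a6, which are alternatives to the Col6a3 chain, differed by -0.09, -0.15 and 0.16.

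The short-chain network collagens, which build hexagonal lattices, showed the smallest span of differences among the classes with 3 or more chains. Col8a1 and Col8a2 are the chains of type VIII collagen, found in vessel walls and around remodelling tissue. Col8a2 read 8.08, 7.74, 7.46 and 8.02 in miR-100 hearts, against 8.03, 8.03, 7.88 and 7.76 in wild type hearts, a difference of -0.10 (SE 0.17, limma adjusted p = 0.938). Col8a1 read 4.56, 4.18, 4.43 and 4.20 in miR-100 hearts, against 4.68, 4.22, 4.43 and 4.26 in wild type hearts, a difference of -0.06. Col10a1, known from the growth cartilage of bone, differed by 0.02.

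Multiplexins are collagens of basement membranes that carry heparan or chondroitin sulfate chains. Col18a1, whose C-terminal fragment is endostatin, was the 1 collagen without overlap between groups. It read 4.59, 4.94, 5.0 and 4.62 in miR-100 hearts, against 5.04, 5.11, 5.14 and 5.06 in wild type hearts. The closest values, 5.0 and 5.04, lay 0.04 apart, and the miR-100 hearts spread more widely, with an SD of 0.21 against 0.05. The difference was -0.30 (SE 0.15, 95% confidence interval -0.62 to 0.02), or 81.2% of the wild type signal, with an unadjusted p of 0.0615 and an adjusted p of 0.679 in limma. A lower value without overlap was found in 2.33% of all rows.

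Col15a1, the multiplexin of muscle and capillary basement membranes, did not share that pattern. It read 5.28, 5.71, 5.71 and 5.45 in miR-100 hearts, against 5.90, 5.99, 5.44 and 5.10 in wild type hearts. The wild type values enclosed all miR-100 values. The difference was -0.07 (SE 0.20, limma adjusted p = 0.970) and lay above 0 without miR-100 replicate 1, wild type replicate 1 or wild type replicate 2, at 0.02, 0.03 and 0.06.

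FACIT collagens have interrupted triple helices and attach to the surface of larger fibrils. Of the 8 measured 7 lay below 0, and the median difference was -0.13, which became -0.205 when wild type replicate 4 was left out and -0.04 when replicate 3 was. Col20a1 had the lowest unadjusted p of the class. It read 6.84, 6.60, 6.65 and 6.69 in miR-100 hearts, against 7.01, 6.97, 7.32 and 6.42 in wild type hearts, a difference of -0.24 (SE 0.18, limma adjusted p = 0.846). Wild type replicate 4 lay below all miR-100 arrays and the other 3 wild type arrays above them, and without that replicate the difference was -0.41 (limma adjusted p = 0.510). Without wild type replicate 3 it was -0.11 (limma adjusted p = 0.944).

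Col14a1, which binds fibrils of type I collagen, differed by -0.22 (SE 0.19) and Col16a1 by -0.09 (SE 0.25), with miR-100 values of Col16a1 from 8.23 to 8.67 and wild type values from 7.99 to 9.24. Of the cartilage chains, Col9a1, Col9a2 and Col9a3 differed by -0.14, 0.12 and -0.16. Col19a1 differed by -0.12, and Col22a1, a chain of tissue junctions such as those of muscle and tendon, by -0.05. Col12a1, also a FACIT, is not analysed here.

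The 4 transmembrane collagens are anchored in the cell membrane and shed part of their helix. Col13a1, which is known from the neuromuscular junction, read 6.67, 6.55, 6.94 and 6.56 in miR-100 hearts, against 6.83, 7.30, 6.80 and 6.70 in wild type hearts, a difference of -0.23 (SE 0.17) that did not pass. MiR-100 replicate 3 lay above all wild type arrays except replicate 2. Col25a1 differed by -0.23, Col23a1 by 0.14 and Col17a1, a hemidesmosome protein of skin that stood at percentile 3.90 of row means, by -0.005.

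Of the remaining chains, Col28a1 is known from the sheath of peripheral nerves. It read 5.68, 5.33, 5.50 and 5.36 in miR-100 hearts, against 5.46, 5.65, 5.78 and 5.75 in wild type hearts, a difference of -0.19 (SE 0.15, limma adjusted p = 0.838). Col26a1 differed by -0.14 at percentile 11.2 of row means. Col7a1, the anchoring fibril of skin, is not analysed here.

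Collagen signal also varied among arrays of 1 group. Averaged over all 42 chains as a deviation from each row's mean, the miR-100 arrays lay at -0.03, -0.04, -0.04 and -0.08 and the wild type arrays at 0.03, 0.12, 0.14 and -0.10, in replicate order. Wild type replicate 4 was thus the lowest of the 8, with 30 of 42 chains below their row mean, and wild type replicate 3 the highest, with 9 below. The fibrillar chains followed the same order at the extremes, at -0.18 in wild type replicate 4 and 0.15 in wild type replicate 3. In type VI collagen the lowest array was wild type replicate 1, at -0.25, with all 6 chains below their row mean. A different array was lowest for multiplexins, where miR-100 replicate 1 lay at -0.32.

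**Figure D3:**
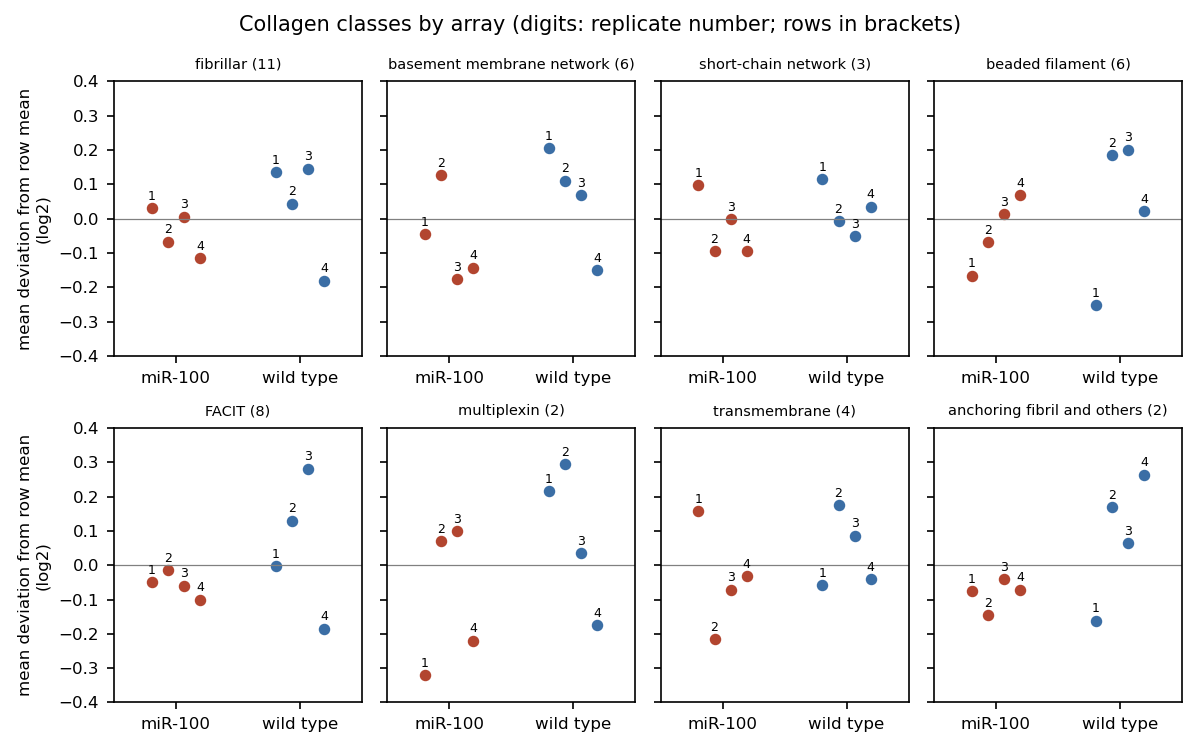
Mean deviation of each collagen class from its row means (log2) on each array, with miR-100 hearts left of wild type hearts and digits for the replicate number. The classes do not rank the arrays alike: wild type replicate 4 is the lowest array for fibrillar and FACIT chains, and wild type replicate 1 for the beaded filament.

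Chains that form a trimer or fibril together were also set against each other within each array, for 9 pairs. No shift between groups passed the test (two-sided exact permutation test over 70 assignments, smallest possible p 0.0286, adjusted over the 9 pairs by Benjamini-Hochberg), and the lowest adjusted p was 0.771. With these group sizes 1 pair alone can reach an adjusted p of 0.257 at best, and 6 pairs would have to be at the smallest p together to pass, so this test could hardly call a shift. The size of a chain-to-chain difference depends on the probes, so only its change between groups is meaningful. Col6a1 minus Col6a3 was -0.24, -0.46, -0.38 and -0.72 in miR-100 hearts, against -0.81, -0.52, -0.67 and -0.79 in wild type hearts. Its shift of 0.25 had an exact p of 0.0857, the lowest of the 9, and miR-100 replicate 4 lay among the wild type arrays.

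The ratio of type I to type III collagen, often followed in the scarred heart, differed little between groups. Col1a1 minus Col3a1 was -3.27, -3.44, -3.22 and -2.25 in miR-100 hearts, against -3.08, -3.21, -3.20 and -2.97 in wild type hearts. Its shift of 0.07 (exact p = 1) became -0.20 without miR-100 replicate 4, the array with the low Col3a1 signal. Within type I collagen, Col1a1 minus Col1a2 shifted by 0.24 (exact p = 0.400), and within type IV, Col4a1 minus Col4a2 shifted by 0.11 (exact p = 0.629). The largest shift, 0.38, was that of Col4a3 minus Col4a4 (exact p = 0.257), with 1.17 in miR-100 replicate 2.

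**Figure D4:**
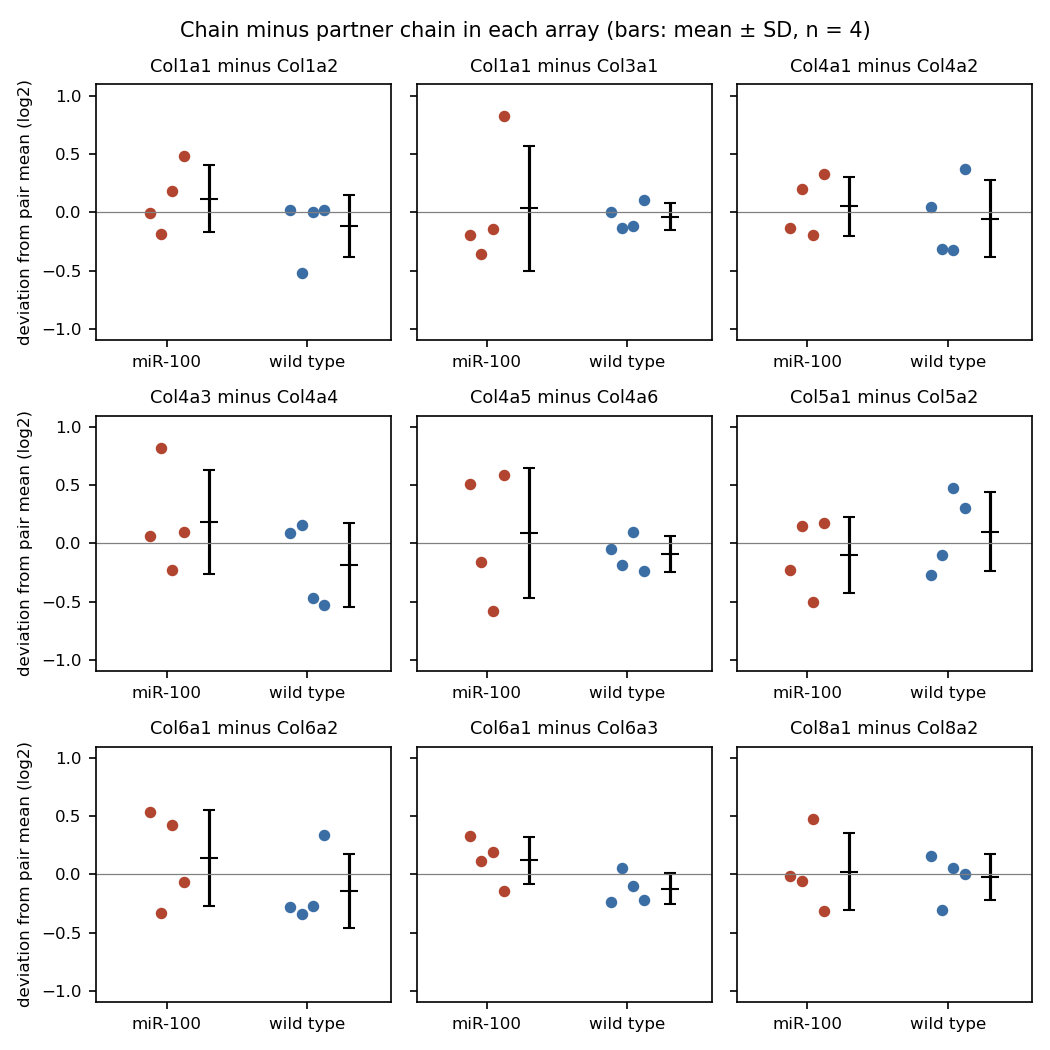
Log2 signal of 1 chain minus that of its partner on each array, as the deviation from the pair's mean over 8 arrays, with miR-100 hearts left of wild type hearts and bars for the mean ± SD (n = 4 each). The groups overlap in all 9 pairs, and miR-100 replicate 4 stands apart for Col1a1 minus Col3a1.

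Correlation between partner chains over the 8 arrays did not pass the test in any pair. Pearson's r over the 9 pairs ran from -0.002 for Col4a5 with Col4a6 to 0.51 for Col6a1 with Col6a3, with group means left in (exact permutation over 40320 pairings, lowest adjusted p 0.855 for r and 0.931 for Spearman's rho). Col6a1 with Col6a3 had r = 0.51 (exact p = 0.202) and rho = 0.43 (exact p = 0.299), with r = 0.70 (exact p = 0.171) without the 2 arrays farthest from the median of Col6a1. Col1a1 with Col1a2 had r = 0.43 (exact p = 0.285) and rho = 0.22 (exact p = 0.609), with r = 0.09 without the 2 farthest arrays. Col4a1 with Col4a2, the pair whose promoter windows overlap, had r = 0.28 (exact p = 0.530) and rho = 0.07 (exact p = 0.882), and r = -0.15 without the 2 farthest arrays. After centring each group on its mean, r was 0.67 (permutation p = 0.0610) for Col6a1 with Col6a3. For Col4a5 with Col4a6 it was -0.44 (permutation p = 0.276), both before adjustment. These p-values are approximate, because centring ties the values of a group together and the permuted pairings ran across groups. Each group has too few arrays for a correlation of its own.

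Around the chains themselves, the genes that modify, process, bind and degrade collagen also held 0 of 69 members past the adjusted threshold in limma, in 6 lists, beside 0.14% of all rows. At an unadjusted p under 0.05 there were 5, 1 higher and 4 lower, beside 7.73% of all rows. The 18 measured genes of intracellular modification and folding had a median difference of 0.07, with 13 above 0 and 0 at an unadjusted p under 0.05. Colgalt2, which adds sugars to hydroxylysine, had the lowest p there, with a difference of -0.37, followed by the proline isomerase gene Ppib at 0.31 and the prolyl hydroxylase gene P4ha2 at -0.28.

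Extracellular processing held 3 of the 5. Pcolce, which enhances the removal of the C-terminal propeptide from fibrillar procollagens, read 8.37, 8.79, 8.62 and 8.51 in miR-100 hearts, against 7.67, 8.42, 7.76 and 7.88 in wild type hearts. Wild type replicate 2 overlapped the miR-100 arrays and the other wild type arrays lay below all of them. Its difference was 0.64 (SE 0.18, 95% confidence interval 0.25 to 1.03), with a limma adjusted p of 0.306. Bmp1, the protease whose activity Pcolce enhances, had the opposite sign, with 7.38, 7.50, 7.77 and 7.62 in miR-100 hearts, against 7.76, 7.93, 7.94 and 8.02 in wild type hearts. That difference was -0.35 (SE 0.14, limma adjusted p = 0.582). The crosslinking enzyme gene Loxl3 differed by -0.50 (SE 0.17, limma adjusted p = 0.412). Over the 13 measured genes of this list the median was -0.01.

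Collagen receptors held the other 2, both lower. Lair1, an inhibitory collagen receptor of immune cells, read 5.10, 5.23, 4.84 and 5.27 in miR-100 hearts, against 5.62, 5.64, 5.45 and 5.44 in wild type hearts, with no overlap, a difference of -0.43 (SE 0.15, limma adjusted p = 0.432). Mrc2, an endocytic receptor that clears collagen fragments, differed by -0.37 (SE 0.16, limma adjusted p = 0.625), and Ddr1, a tyrosine kinase receptor for collagen, by 0.17. The median over the 8 measured receptors was -0.04.

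The last 3 lists had 0 members at an unadjusted p under 0.05. Fibril-associated proteoglycans had a median of 0.12 over 9 genes, with Aspn at -0.34, Lum at 0.26 and Prelp at 0.22. Basement membrane partners of type IV collagen had a median of -0.03 over 11 genes, with the laminin gene Lamb2 at 0.21, the linker gene Nid1 at -0.17 and the laminin gene Lama4 at 0.15. Among 10 genes of collagenases, gelatinases and their inhibitors the median was -0.06, with the collagen-degrading cathepsin gene Ctsk at -0.49 and the inhibitor genes Timp4 and Timp3 at 0.50 and -0.49.

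Markers of the cells that make collagen gave the setting for these values. Of 10 fibroblast markers 9 were measured, with a median difference of 0.03, 0 at an unadjusted p under 0.05, and a summed log2 level of 94.5 to 96.6 in miR-100 hearts and 93.4 to 96.7 in wild type hearts. Of these 9, 5 lay above 0 and 4 below. The 3 with the lowest p, all above 0, were Lum at 0.26, the fibroblast transcription factor gene Tcf21 at 0.18 and the proteoglycan gene Dcn at 0.12. All 7 activated fibroblast markers were measured, 4 above 0 and 3 below, with a median of 0.21 and a summed level of 47.2 to 48.5 in miR-100 hearts and 45.1 to 46.8 in wild type hearts. The gap between these sums rests mainly on Acta2 and Meox1, at 1.11 and 0.82, while the other members differed by -0.30 to 0.26. Within that list Acta2, the actin of smooth muscle and myofibroblasts, read 13.74, 14.01, 14.66 and 12.94 in miR-100 hearts, against 12.86, 12.71, 12.72 and 12.61 in wild type hearts. The groups did not overlap, and the difference was 1.11 (SE 0.27, 95% confidence interval 0.52 to 1.71) with a limma adjusted p of 0.203, and 1.41 with a limma adjusted p of 0.0442 without miR-100 replicate 4. Meox1 differed by 0.82, with 5.62 in miR-100 replicate 4 and 3.86 to 3.96 in the other miR-100 arrays, against 3.23 to 3.94 in wild type arrays, and by 0.39 without miR-100 replicate 4. Cthrc1, a secreted protein of activated fibroblasts, differed by 0.26, and Postn, a matrix protein of such cells that is named beyond the 3 lowest p and after its values were seen, by -0.30.

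Acta2 is also 1 of the 5 smooth muscle markers, whose median difference was -0.05. Tagln and Mylk, other contractile genes of that cell type, differed by -0.19 and -0.05, and the 5 markers summed to 39.3 to 41.9 in miR-100 hearts and 38.9 to 41.4 in wild type hearts. Of the 7 pericyte markers 4 lay above 0 and 3 below, with a median of 0.03 and the potassium channel gene Kcnj8 at -0.31 (SE 0.13) without overlap, and the 7 measured endothelial markers of 8 had a median of -0.04. Epicardial markers had a median of -0.07 over 4 genes, 2 above 0 and 2 below. Among them Upk3b, whose groups overlapped, was at -0.60 (SE 0.28, limma adjusted p = 0.646). Medians were -0.01 over 4 macrophage markers, -0.09 over 2 Schwann cell markers, 0.06 over 4 markers of cartilage and valve and -0.26 over 3 atrial markers. Over all 8 arrays no listed marker passed the adjusted threshold in limma. The part of cell composition in the collagen values was not tested.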

How the data were processed

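Left ventricular RNA of 8 samples, 4 miR-100 and 4 wild type, was measured on Affymetrix arrays. The deposited values are on a log2 scale, and the submitters' processing notes name Transcriptome Analysis Console 4.0. For the authors' background correction, normalization and filters, the sources used here give nothing. The table has 22206 rows, of which 19572 carry 1 gene symbol and 2634 none, and all values were used as deposited. Depth has no meaning for arrays. The number of arrays limits the precision, and signal over background is a further limit for dim rows.

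Groups were taken from the labels. All rows were fitted together (limma 3.58.1, lmFit and eBayes, R 4.3.3, no covariate), with Benjamini-Hochberg adjustment over the whole table and a threshold of 0.05. The fit was tested on simulated data. Chain pairs were compared by exact permutation in Python 3.11.15 with numpy 2.4.6, and ranks came from scipy 1.17.1. Alternatives were quantile normalization, median centring, an intensity trend, array weights, filters on dim rows, the replicate number as a block and leaving out each array.

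The collagen members, classes and gene lists were chosen with earlier results of these data known. Array values are given for the chain with the lowest p of each class, for chains at an unadjusted p under 0.05 or without overlap, and for the main chains of the heart matrix. From each related list up to 3 genes with the lowest p are named.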

Additional observations from a re-analysis of the deposited data

Results flagged for a closer look

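In 7 of 84 groups of 4 arrays, 1 collagen value stood far from the other 3 relative to the range of its group, where chance gives about 1 in 20. Col1a1 read 6.71 in miR-100 replicate 2, against 6.88 to 6.91 in the other miR-100 arrays. Col3a1 read 9.13 in miR-100 replicate 4, against 10.13 to 10.16. Col4a3 read 6.80 in miR-100 replicate 2, against 6.02 to 6.08, and Col4a4 read 5.96 in miR-100 replicate 3, against 5.57 to 5.63. Col6a4 read 4.11 in miR-100 replicate 2, against 4.67 to 4.69, and Col19a1 read 4.55 in miR-100 replicate 3, against 4.35 to 4.38. Col11a1 read 3.88 in wild type replicate 4, where the rest of its group read 4.43 to 4.51.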

How the results depend on the processing

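In every alternative run, 0 collagen chains passed the adjusted threshold in limma, and the lowest adjusted p of any chain was 0.470 without wild type replicate 4. Of all rows 31 passed, 65 with an intensity trend and 11 to 27 when an array was left out. At an unadjusted p under 0.05 there was 1 collagen chain, 0 above percentile 25 or 50 of row means, filters that remove Col4a6, and 0 to 3 when an array was left out. With the replicate block there were 2, Col1a2 and Col4a6. The labels do not say what the replicate numbers mean. Over all rows, centred on group means, same-numbered arrays correlated between -0.06 and 0.07, and 2 of 4 numbers paired best with their own. These few values cannot decide whether the numbers pair the arrays.

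Counts below 0 and the medians over all collagen chains and over all rows were added after seeing the data; the class medians were not. Chains below 0 numbered 29 to 33 without an array, beside 52% to 53.4% of all rows. Above percentile 50 they numbered 14 of 18, beside 48.6% of all rows there. The median of all rows was -0.0033 after quantile normalization, -0.0075 above percentile 25 and 0.005 above percentile 50. The fibrillar median was -0.17 above percentile 50. Col5a1 was -0.0063 with array weights.

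Leaving out an array turned the sign of these differences: Col15a1 (-0.24 to 0.058), Col5a1 (-0.067 to 0.11), Col4a1 (-0.17 to 0.023), Col8a2 (-0.19 to 0.022), Col3a1 (-0.33 to 0.047), Col8a1 (-0.13 to 0.039) and Col6a1 (-0.089 to 0.12). The shifts of Col1a1 minus Col3a1 (-0.20 to 0.20) and Col8a1 minus Col8a2 (-0.11 to 0.16) turned too, and the beaded filament median ran from -0.24 to 0.02. Without the 2 arrays farthest from the median, r was -0.15 for Col4a1 with Col4a2, 0.047 for Col4a5 with Col4a6, -0.034 for Col6a1 with Col6a2 and -0.53 for Col8a1 with Col8a2. Members past the threshold in the activated fibroblast and smooth muscle lists numbered 0 to 1, the 1 being Acta2 without miR-100 replicate 4. The cause was not tested.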
